A study of Caenorhabditis elegans with 59 samples.

Results

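Small RNA libraries of wild-type Caenorhabditis elegans late embryos were set against those of wild-type early embryos, to ask which microRNA (miRNA) strands were higher or lower later in embryogenesis. Of the 303 strands with values in these libraries, 198 had a mean of at least 5 CPM (a strand's counts scaled to all miRNA counts of its library) over the 4 wild-type embryo libraries, and these are described here. The filter used level only, not the difference between the stages. The series holds 59 libraries across development. They come from wild-type worms and from worms that lack EBAX-1, the nematode ortholog of the ubiquitin ligase ZSWIM8. Others come from glp-4 or mir-43 mutants, with or without EBAX-1.

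Late embryos (2 libraries) were N2 embryos that developed for 6 h more in M9 buffer after bleach isolation, and early embryos (2 libraries) were N2 embryos taken directly after bleaching. The same contrast was also made in ebax-1(tm2321) null mutants, with 2 late-embryo and 2 early-embryo libraries that share none with the wild type. All 8 libraries came from whole embryos of cultures kept at 20 °C on E. coli OP50. Wild-type L1 larvae and gravid adults are cited beside them. The L1 larvae hatched without food in M9 buffer, and the paper reanalysed its gravid-adult results from an earlier study. The embryos were released from mixed-stage cultures, so each library pools many embryos. In such bulk samples, fewer cells of a type and less of a miRNA per cell cannot be told apart.

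miRNAs are cut from hairpin precursors as duplexes, of which the guide strand is loaded into an Argonaute protein and represses mRNAs, mostly through its seed near the 5′ end. The passenger strand, marked here by a star or by the lesser arm, is usually discarded soon after processing. Guides can outlast the transcription of their hairpin by a long time, whereas passenger strands depend more on continuing production. The worm embryo is known for the miR-35 family, which is made in the germline and embryo and is needed for embryonic development, and for a set of miRNAs that come on as muscle, gut, neurons and glia form.

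The late-embryo libraries held 9208193 and 8979387 miRNA counts and the early-embryo libraries 3354552 and 1937751, so that 5 CPM stood for 9.69 counts in the smallest. Over the 198 strands, log2 CPM correlated with r = 0.999 between the late-embryo libraries and 0.997 between the early-embryo libraries, and with 0.946 to 0.952 between the stages. Replicates differed by more than 1.5-fold at 2 strands in late embryos and at 17 in early embryos. The miR-35 family, which marks embryos, made up 17.7% to 37.7% of the counts of all 4 libraries. Of 6 markers of larvae and adults (lin-4, let-7, miR-48, miR-84, miR-241 and miR-237), the highest in early embryos relative to adults was lin-4, at 0.247% of its adult level.

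Most strands differed between the stages. By edgeR's quasi-likelihood test with TMM scaling, 59 of the 198 strands (29.8%) rose and 73 (36.9%) fell in late embryos at an adjusted p under 0.05, 132 in either direction (66.7%), while 66 did not pass. On the TMM scale 11 strands rose and 37 fell by at least 2-fold, and the extremes were a 31.0-fold fall of miR-39* and a 3.28-fold rise of miR-70*. Scaling by library size alone gave 97 higher and 56 lower strands, a share of 63.4% higher among the called strands against 44.7% with TMM. The sizes of the changes turned with the scale too: by library size 32 strands were higher and 28 lower by at least 2-fold, and the medians of the 59 that rose and the 73 that fell with TMM were 1.01 and -0.64 by library size, against 0.64 and -1.01 with TMM. Without late-embryo replicate 2, 38 strands were called higher and 70 lower. CPM did not overlap between the stages at 174 strands (87.9%), 110 of them higher (55.6%) and 64 lower (32.3%) in late embryos.

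The difference between these splits is a shift of all strands together. The median log2 fold change was -0.05 with TMM, 0.00 with DESeq2 and 0.33 with library size. Counts outside the 8 miR-35 family guides made up 82.2% and 82.3% of late-embryo libraries, against 62.3% and 64.9% of early-embryo libraries, a difference of 0.37 on the log2 scale. Every log2 fold change below is relative to the TMM scale unless said otherwise, and is about 0.38 below the log2 ratio of the CPM printed beside it. The 59 strands that rose did so on both scales, and 56 of the 73 that fell also passed as lower by library size. These are relative levels, and the amount of miRNA per embryo was not measured.

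**Figure D1:**
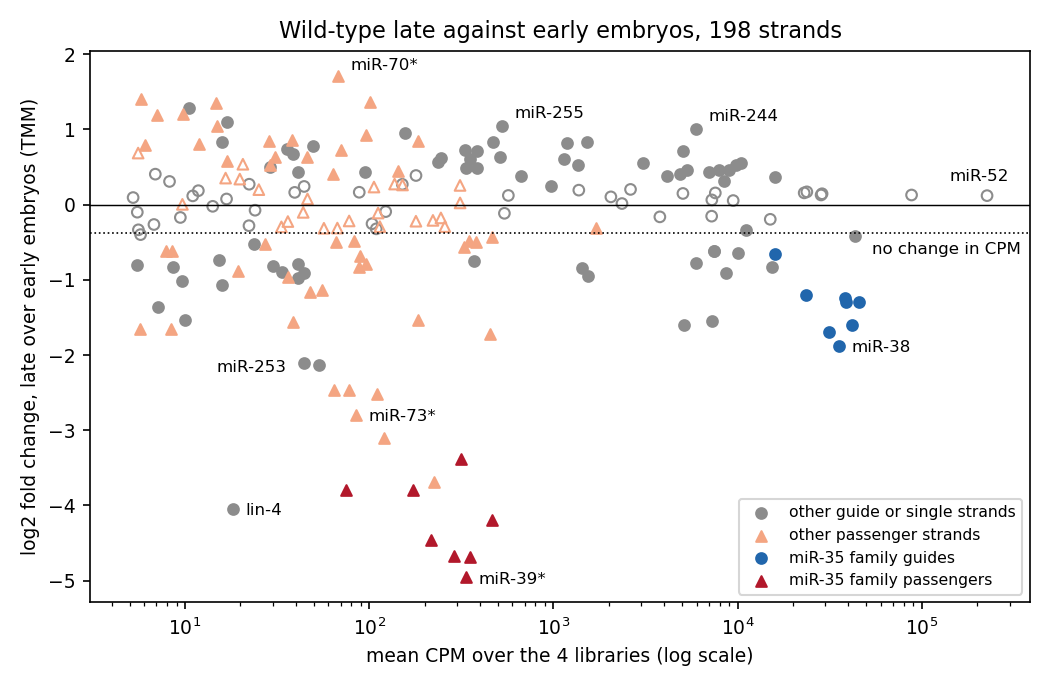
Log2 fold change of late over early embryos (y axis, TMM scale) against the mean CPM of the 4 libraries (x axis, log scale) for 198 strands, with filled symbols for strands past an adjusted p of 0.05 and open symbols for the others. The solid line marks no change on the TMM scale and the dotted line no change in CPM; the miR-35 family passengers, lin-4 and miR-44* lie lowest, and the rises do not exceed 3.28-fold.

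All 8 guides of the miR-35 family fell in late embryos. Together they made up 17.8% and 17.7% of the pool in late embryos, against 37.7% and 35.1% in early embryos. Of the guides, miR-38 fell most, with 18454 and 18194 CPM in late embryos against 52101 and 52800 CPM in early embryos (log2 fold change -1.88 ± 0.12 SE, adjusted p = 3.7e-11). It had ranked 5 among all strands in early embryos and ranked 13 in late embryos.

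The members of the family did not fall equally. After miR-38 came miR-37 (-1.70) and miR-35 (-1.60), then miR-39 (-1.29), miR-36 (-1.29), miR-40 (-1.25) and miR-41-3p (-1.20), with standard errors of 0.13 to 0.16. miR-42, which lies in another cluster, fell least, with 14376 and 14383 CPM in late embryos and 19133 and 15967 CPM in early embryos (-0.66 ± 0.13, adjusted p = 2.5e-04). Neighbours in this order differed by less than the sum of their standard errors, except miR-35 and miR-39, and miR-41-3p and miR-42. These differences between members were not tested. In the stage that followed, L1, miR-38 was at 1202 and 1178 CPM and miR-42 at 1903 and 1456 CPM, so the late embryos held the family partway between its early-embryo and larval levels.

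The passenger strands of the family fell much further than the guides. miR-39* had 27.5 and 26.1 CPM in late embryos, against 646 and 649 CPM in early embryos, a 31.0-fold fall (log2 fold change -4.96 ± 0.15, adjusted p = 1.1e-16). miR-41-5p had 33.3 and 34.2 CPM in late embryos against 698 and 646 CPM in early embryos. The smallest fall among the 8 passengers was that of miR-35*, with 65.6 and 72.2 CPM in late embryos against 579 and 538 CPM in early embryos, which is 10.5-fold. No passenger of the family overlapped between the stages, beside 174 of all 198 strands (87.9%) without overlap, 64 of them lower (32.3%).

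**Figure D2:**
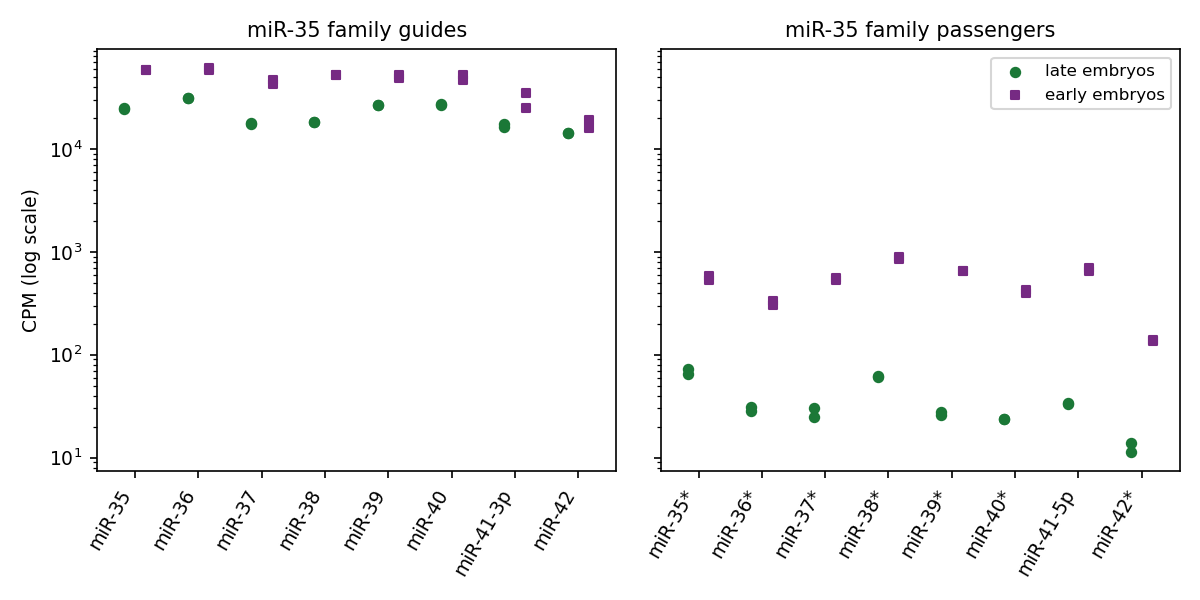
CPM (y axes, log scale, shared) of the 8 miR-35 family guides (left) and their 8 passenger strands (right) in each library, with late embryos left (circles) of early embryos (squares) for each strand. All strands are lower in late embryos, the guides by 1.58-fold to 3.67-fold and the passengers by 10.5-fold to 31.0-fold on the TMM scale.

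Hairpins of this family lie close together, and their strands moved with their neighbours. mir-35 to mir-41 span chr II:11537608-11538404 (WBcel235, plus strand) within an intron of Y62F5A.9, a gene on the opposite strand, and all 7 guides and 7 passengers there fell. mir-42, mir-43 and mir-44 lie at chr II:11889811-11890118, in no annotated protein-coding gene. miR-43 and miR-44 belong to other seed families, yet they too fell: miR-43 had 8875 and 9271 CPM in late embryos and 11461 and 10531 CPM in early embryos (-0.64 ± 0.12), and miR-44 fell by 0.82 on the log2 scale. Their passengers fell by 3.11 (miR-43*), 3.68 (miR-44*) and 3.80 (miR-42*) on that scale.

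The mature sequences of miR-44 and miR-45 are identical and share an entry, but their passengers are counted apart and so tell the hairpins apart. miR-44* had 38.7 and 43.4 CPM in late embryos, against 422 and 397 CPM in early embryos. miR-45*, from a hairpin at chr II:11880944-11881039 on the minus strand, had 34.5 and 34.2 CPM in late embryos, against 54.3 and 67.1 CPM in early embryos. Both fell, miR-45* by 1.16 and miR-44* by 3.68 on the log2 scale, and in late embryos the 2 passengers stood at like levels.

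The mir-229, mir-64, mir-65 and mir-66 hairpins, which lie in introns of gcn-1 on its own strand (chr III:2172452-2173206), form a further cluster in which all guides and all passengers fell. miR-65 had 3025 and 3091 CPM in late embryos, against 7065 and 7430 CPM in early embryos (log2 fold change -1.60 ± 0.11, adjusted p = 4.7e-11). miR-64 fell by 1.55, miR-66 by 0.91 and miR-229 by 0.78 on the log2 scale, and their passengers had log2 fold changes of -0.96 to -2.52. The remaining member of this seed family, miR-63, is encoded elsewhere and rose, with 494 and 495 CPM in late embryos and 263 and 291 CPM in early embryos (0.48 ± 0.12, adjusted p = 0.0012), though it did not pass without late-embryo replicate 2 (0.37).

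Several other guides fell with these. miR-73 and miR-74 fell by 0.62 each, with passengers at -2.80 and -2.46. Of the same seed family, miR-72 did not pass (-0.20, adjusted p = 0.12). It had 15502 and 16271 CPM in late embryos, against 13503 and 14956 CPM in early embryos. miR-75, in a cluster with miR-73 and miR-74, did not pass (0.12), nor did miR-75* (0.54). Neighbours thus did not move together in all 14 clusters of hairpins within 5 kb. Another split was that of miR-51, which fell (-0.41), and miR-53, which did not pass (0.16). miR-61 and miR-250, which share a cluster at chr V:11769917-11770156, fell by 0.85 and 0.95. Among scarce guides, miR-253 had 19.8 and 20.9 CPM in late embryos and 64.7 and 72.8 CPM in early embryos (-2.11 ± 0.17), and miR-78 had 27.5 and 20.6 CPM in late embryos and 70.9 and 95.5 CPM in early embryos (-2.13 ± 0.18). miR-240-3p and miR-786, of which miR-786 acts in the intestine in the rhythm of defecation, fell by 0.82 and 1.01 from low levels, and miR-240-3p did not pass by library size, without late-embryo replicate 1 (-0.80) or without early-embryo replicate 2 (-0.57).

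The study's own list of EBAX-1-sensitive miRNAs has 22 entries, 21 of them tested here: 17 fell, miR-244 and miR-788-5p rose, and miR-71 and miR-239b did not pass. That list was chosen on libraries of this series, these included, so its count is not independent of them. Of 10 germline-enriched miRNAs named by the study (the 8 miR-35 family guides, miR-43 and miR-70), 9 fell and miR-70 rose, with 4236 and 3798 CPM in late embryos against 2073 and 2190 CPM in early embryos (0.56 ± 0.11). By comparison, 36.9% of all strands fell, with a median of -0.05, and the medians of the lists were -1.07 (EBAX-1-sensitive) and -1.27 (germline-enriched). Both lists hold the miR-35 family guides and miR-43, whose falls are given above, so the medians are not independent.

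The 2 most abundant strands were the same at both stages. miR-52, of the broadly expressed miR-51 family, was the top strand of every library, at 261357 and 266281 CPM in late embryos and 191628 and 186239 CPM in early embryos, and miR-58, a relative of bantam in flies, came after it at 104248 and 101201 CPM in late embryos and 70237 and 76703 CPM in early embryos. Neither passed on the TMM scale (0.12 and 0.13), and both were higher by library size. The 6 miR-51 family guides made up 40.8% and 41.2% of the late-embryo pool, against 30.4% and 30.9% of the early-embryo pool.

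Within these families the scale decided most calls. Of the 6 miR-51 family guides, 5 did not pass with TMM (0.12 to 0.17) and were called higher by library size, and miR-51 fell with TMM (-0.41, adjusted p = 0.0047) but overlapped in CPM and did not pass by library size. Of 4 miR-58 family guides, miR-82 fell with TMM (-0.34) but stood at 0.01 by library size, and miR-58, miR-80 and miR-81 did not pass with TMM and were called higher by library size. Without early-embryo replicate 1, miR-58 (0.18) and the miR-51 family guides miR-52 (0.26), miR-53 (0.29), miR-54 (0.22), miR-55 (0.19) and miR-56 (0.16) passed as higher, and without early-embryo replicate 2 miR-81 passed as lower (-0.21). The sign itself turned for miR-81, at -0.15 with TMM and 0.20 by library size.

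In the other seed families the guides moved in both directions. All 3 tested members of the miR-44 family (miR-44, miR-61 and miR-247) fell, and so did miR-43, miR-250 and miR-797 of the miR-2 family, while miR-2 itself did not pass (0.16). Both members of the miR-46 family rose (miR-46 by 0.38 and miR-47 by 0.24), as did miR-87 and miR-356 of the miR-87 family, with miR-233 at 0.01. The calls of miR-47, miR-356 and miR-797 each failed in 3 or 4 of the 4 fits that left out a library, in which miR-47 was at 0.11 to 0.26, miR-356 at 0.30 to 0.46 and miR-797 at -0.84 to 0.02, and miR-46 did not pass without either late-embryo library (0.26 and 0.32). Of the 4 heat-responsive miRNAs tested, miR-788-5p rose, miR-247 and miR-797 fell and miR-239b did not pass. Of 5 miRNAs linked to ageing and stress, miR-239a rose and miR-34, miR-71, miR-238 and miR-239b did not pass. By comparison, 29.8% of all strands rose and 36.9% fell, and miR-239b is in both lists.

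Rises were spread over strands of many levels. By mean CPM, they took in 11 of 40 strands under 20, 15 of 52 from 20 to 100 and 16 of 51 from 100 to 1000. Above that, 15 of 34 strands from 1000 to 10000 CPM rose, and 2 of 21 over 10000 CPM. The 59 strands that rose made up 14.2% and 13.96% of the late-embryo pool, against 7.45% and 8.07% of the early-embryo pool, and 39 of them were guides or strands counted without a partner. Among guides above 500 CPM, miR-255 and miR-244 rose most. miR-244 had 8552 and 8600 CPM in late embryos and 3298 and 3349 CPM in early embryos (log2 fold change 1.01 ± 0.11, adjusted p = 8.6e-08), and miR-255 had 780 and 749 CPM in late embryos and 265 and 317 CPM in early embryos (1.04 ± 0.11).

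Others of the rising guides have known sites or roles. miR-83, of the same seed as miR-29 in mammals, had 2139 and 2097 CPM in late embryos and 923 and 932 CPM in early embryos (0.83 ± 0.11). miR-235, which holds blast cells quiescent in starved L1 larvae, had 1694 and 1579 CPM in late embryos and 643 and 815 CPM in early embryos (0.82 ± 0.10), and stood at 4578 and 5255 CPM in L1. miR-788-5p (0.83), miR-1820 (0.96) and miR-239a (0.63) rose as well, and so did the abundant guides miR-62 (0.55), miR-86 (0.46), miR-87 (0.43) and miR-79 (0.36). Without late-embryo replicate 2, miR-86 (0.33), miR-87 (0.32) and miR-79 (0.26) did not pass, and without late-embryo replicate 1 miR-79 (0.29) did not.

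Of 7 strands that mark differentiated tissues, 5 rose, against 29.8% of all strands, and by library size all 7 passed as higher, against 97 of all 198. miR-1, found in muscle, had 13156 and 12431 CPM in late embryos and 6815 and 7082 CPM in early embryos (0.52 ± 0.11, adjusted p = 3.2e-04). miR-60-3p, of the intestine, rose by 0.46 ± 0.13, and miR-228, of glia, by 0.46 ± 0.10. miR-786, which also acts in the intestine but is not among these 7 strands, fell from low levels (-1.01). Of 4 neuronal miRNAs, miR-124, of sensory neurons, rose (6391 and 5944 CPM in late embryos, 3533 and 3719 CPM in early embryos, 0.41 ± 0.11), and so did miR-790 (0.49 ± 0.12). Without late-embryo replicate 1, miR-60-3p (0.42), miR-124 (0.31) and miR-790 (0.32) did not pass, and without late-embryo replicate 2, miR-60-3p (0.36) and miR-228 (0.36) did not.

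The other neuronal miRNAs did not pass. lsy-6, which sets the left-right asymmetry of a pair of taste neurons, had 54.8 and 51.6 CPM in late embryos and 31.3 and 39.7 CPM in early embryos (0.24 ± 0.17, adjusted p = 0.22), and miR-791-3p had 17.6 and 20.5 CPM in late embryos and 11.6 and 17.5 CPM in early embryos (0.08 ± 0.22). CPM of both were higher in each late-embryo library than in each early-embryo library, as for 110 of all 198 strands (55.6%). For miR-791-3p this was barely so (17.6 against 17.5 CPM). By library size both passed as higher, as did 97 of all 198.

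**Figure D3:**
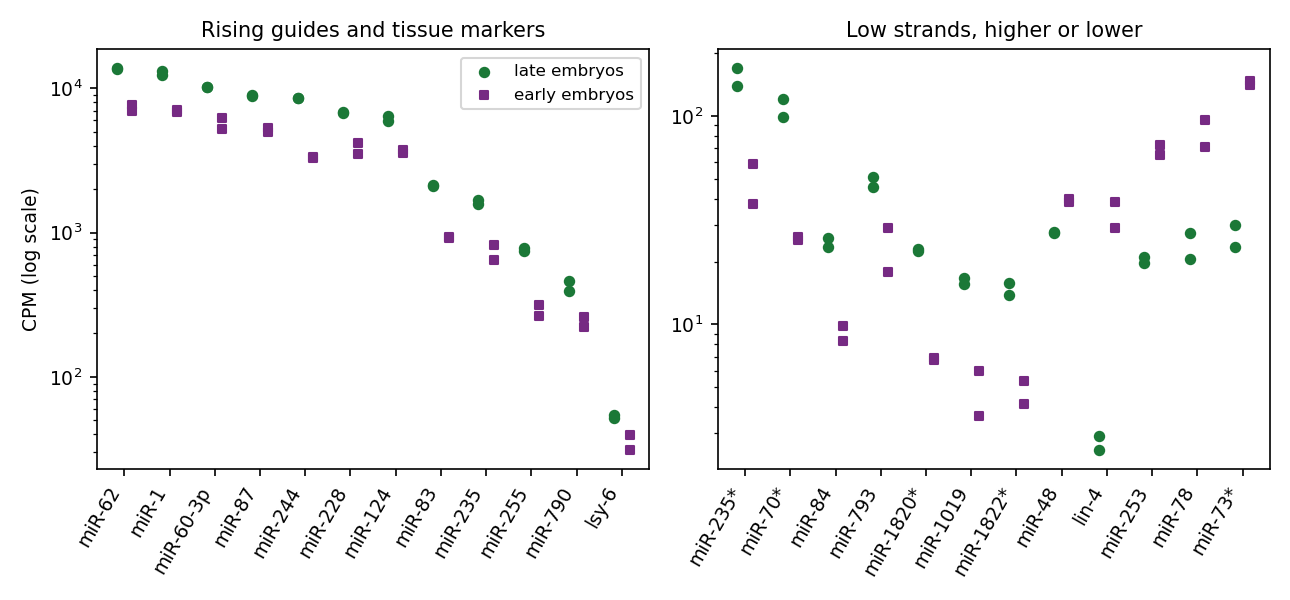
CPM (y axes, log scales that differ between the panels) of 12 guides that rose or mark tissues (left) and of 12 scarcer strands (right), in each library, with late embryos left (circles) of early embryos (squares) for each strand. All strands of the left panel are higher in late embryos, and on the right miR-48, lin-4, miR-253, miR-78 and miR-73* are lower in late embryos, lin-4 by 16.5-fold.

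The largest fold rises were in scarce strands. miR-70*, the passenger of miR-70, had 121 and 99.3 CPM in late embryos and 26.2 and 25.3 CPM in early embryos (1.71 ± 0.19, adjusted p = 1.0e-07), miR-235* had 169 and 140 CPM in late embryos and 37.9 and 58.8 CPM in early embryos (1.36 ± 0.17), and miR-1820* had 22.4 and 23.1 CPM in late embryos and 6.86 and 6.71 CPM in early embryos (1.36 ± 0.24). miR-1019, a mirtron processed from a spliced intron of dyf-5, had 16.7 and 15.6 CPM in late embryos and 5.96 and 3.61 CPM in early embryos (1.28 ± 0.28). miR-234* (2.65-fold higher), miR-1822* (2.30-fold) and miR-1020* (2.28-fold), with miR-1019, were under 5 CPM on average in early embryos, so they passed the level filter through late embryos, and miR-234* was not called without early-embryo replicate 2 (log2 fold change 1.00). In all, 7 strands passed the filter only through late embryos, 5 of which were called higher, and 5 only through early embryos, all called lower. The latter were lin-4, miR-4813*, miR-359, miR-1832* and miR-4810.

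miRNAs that time larval development were near the floor at both stages and moved in both directions. In larvae, lin-4 and the let-7 family switch cells to later fates by repressing heterochronic genes. miR-84 of the let-7 family had 26.1 and 23.5 CPM in late embryos and 8.35 and 9.81 CPM in early embryos (2.14-fold higher, adjusted p = 2.8e-04), and miR-793 had 51.2 and 45.7 CPM in late embryos and 17.9 and 28.9 CPM in early embryos (0.74 ± 0.20), which did not pass without late-embryo replicate 1 (0.61) or early-embryo replicate 1 (0.51). miR-48 fell, with 27.5 and 27.6 CPM in late embryos and 39.9 and 38.7 CPM in early embryos (-0.89 ± 0.18).

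lin-4 had 2.50 and 2.90 CPM in late embryos, against 38.5 and 28.9 CPM in early embryos (-4.05 ± 0.25). It is 1 of the 5 strands that passed the level filter through early embryos only, so that being lower in late embryos was a condition of its being tested. Its early-embryo level was 0.247% and 0.241% of that in gravid adults. The ebax-1(tm2321) early embryos held 0.745 and 1.47 CPM of lin-4, so among these embryo libraries lin-4 exceeded its late-embryo level in wild-type early embryos alone. miR-48 stood at 37.2 and 37.8 CPM in early embryos of the mutant. let-7, miR-241 and miR-237, below the filter, had 2.93 and 2.45, 1.85 and 1.89, and 0.977 and 0.891 CPM in late embryos, against 6.26 and 4.13, 4.77 and 4.13, and 1.19 and 2.06 CPM in early embryos. The part of material from adult bodies in these values was not tested.

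Guide and passenger strands of a hairpin were then compared within each library, where the scale cancels. Over 78 pairs with both strands past the filter, limma on log2((CPM + 1) of the guide over (CPM + 1) of the passenger) called the ratio higher in late embryos for 30 pairs (38.5%) and lower for 4 (5.13%), 34 in either direction (43.6%), with a median change of 0.34 on the log2 scale. All 8 pairs of the miR-35 family were higher, with a median of 3.00. For miR-39 the ratio was 931 and 988 in late embryos and 80.6 and 76.1 in early embryos, a 12.3-fold difference (adjusted p = 6.0e-06), and for miR-35, the least changed of the family, it was 367 and 343 in late embryos and 101 and 109 in early embryos, a 3.38-fold difference.

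Outside the family, 22 of 70 pairs were higher. The largest changes were those of miR-44 (7.11-fold), miR-43 (5.40-fold), miR-73 (4.43-fold), miR-74 (3.45-fold) and miR-66 (2.87-fold). The pairing of miR-44 with miR-45* did not pass (1.26-fold, adjusted p = 0.14). The miR-44 entry holds the guides of both hairpins and was paired with each passenger. Neither of these ratios is thus within a single hairpin, and the fall of that guide entry counts in both pairs. In the gcn-1 cluster, miR-65 had ratios of 25.5 and 27.8 in late embryos and 25.9 and 31.1 in early embryos, a change of -0.09 ± 0.16 that did not pass, whereas the ratio of miR-64 was higher in late embryos (1.90-fold).

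The ratio was higher in late embryos in 16 of the 25 pairs whose guide fell, and in 9 of the 24 pairs whose guide did not pass, a share close to the 38.5% of all pairs. Among those 9 were miR-58 (303 and 314 in late embryos, 206 and 198 in early embryos), miR-81 (1.94-fold) and miR-53 (1.92-fold). miR-1 and miR-62, whose guides rose, were also higher (1.76-fold and 1.79-fold). Pairs in which both strands rose numbered 16, none with a higher ratio. These pairs were picked on a rise of the ratio's denominator in the same libraries, which made a higher ratio less likely in advance. Passenger strands as a class made up 0.908% and 0.866% of the late-embryo pool and 1.30% and 1.35% of the early-embryo pool, with 20 of 80 higher and 36 lower, beside 29.8% and 36.9% of all strands. By library size the balance turned, with 31 passengers higher and 25 lower.

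The 4 pairs with a lower ratio in late embryos were miR-70, miR-71, miR-250 and miR-235. For miR-70 the ratio was 34.9 and 37.9 in late embryos and 76.1 and 83.3 in early embryos, as miR-70* rose more than miR-70 (change -1.13 ± 0.14, adjusted p = 6.4e-04). For miR-71, which acts in lifespan, it was 10.6 and 13.8 in late embryos and 21.5 and 17.8 in early embryos (-0.69 ± 0.18, adjusted p = 0.020). The number of lower ratios was unsteady: it was 15 without early-embryo replicate 1 and 2 without late-embryo replicate 2.

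**Figure D4:**
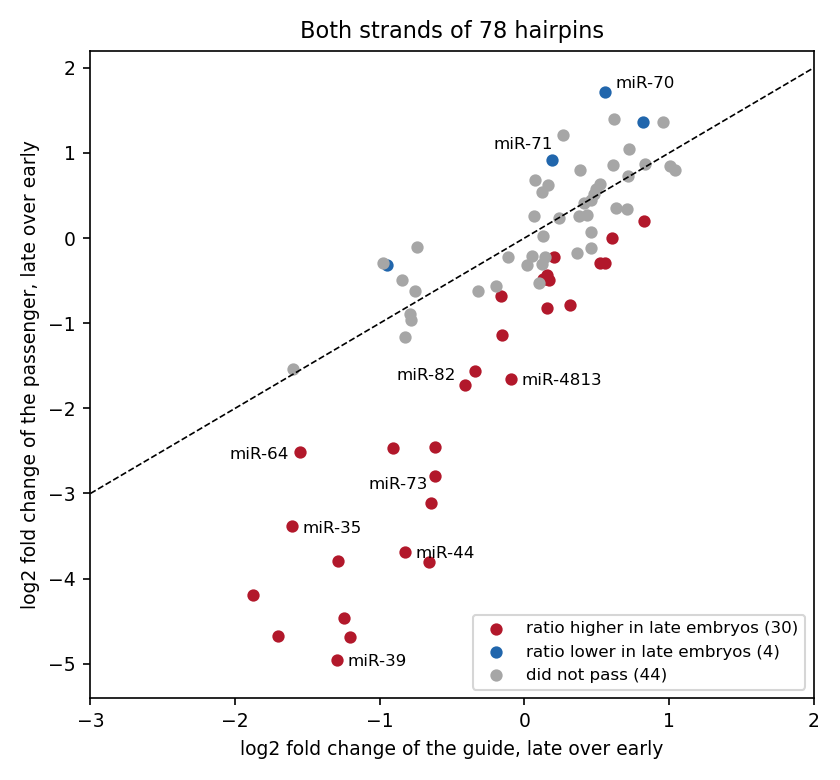
Log2 fold change of late over early embryos of the passenger strand (y axis) against that of its guide (x axis), both on the TMM scale, for 78 pairs, with the dashed line at equal change. The 30 pairs with a higher guide to passenger ratio in late embryos lie below the line, down to miR-39 with a passenger change of -4.96, and the 4 with a lower ratio lie above it.

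The ebax-1(tm2321) embryos, which share no library with the wild type, gave the contrast a repeat in another genotype. In both genotypes early-embryo libraries are lettered A and B and late-embryo libraries D and E. Whatever these letters stand for cannot be told apart from stage in either genotype. The mutant early-embryo libraries held 1343153 and 6137841 miRNA counts and the mutant late-embryo libraries 7683829 and 9492560. In the mutant, 75 of the same 198 strands rose (37.9%) and 85 fell (42.9%), 160 in either direction (80.8%). Of these, 52 and 69 were called in the same direction in the wild type. The log2 fold changes had r = 0.911 (Spearman 0.889) between genotypes over the 198 strands, as a description, since strands of a hairpin or cluster are not independent. The sign matched for 128 of the 132 strands called in the wild type. Only miR-86* and miR-124* were called in opposite directions, miR-124* with 61.3 and 56.7 CPM in late embryos and 82.6 and 74.5 CPM in early embryos of the mutant, and 77.9 and 81.1 CPM in late embryos and 38.2 and 57.8 CPM in early embryos of the wild type. The wild type call of miR-124* was lost without either late-embryo library (0.38 without replicate 1 and 0.26 without replicate 2) and without early-embryo replicate 1 (0.22).

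A genotype by stage term, fitted over all 8 embryo libraries and 195 strands, passed for 60 (30.8%), of which 22 were higher (11.3%) and 38 lower (19.5%) in the mutant. Of the guides or strands without a partner, 22 had a higher term, 2 a lower term and 91 did not pass. Of the passengers, 36 had a lower term and 44 did not pass. Of the 21 EBAX-1-sensitive miRNAs, 9 had a higher term and none a lower term, though again that list was chosen on these libraries. For miR-38, late embryos of the mutant held 41576 and 41400 CPM and early embryos 65623 and 67253 CPM, a fall of 0.99 on the log2 scale against 1.88 in the wild type (term 0.86 ± 0.10, adjusted p = 1.5e-04). Leaving out any of the libraries except wild-type early-embryo replicate 2 left 7 to 14 higher terms, and lower terms numbered 14 without mutant early-embryo replicate 2 and 16 without mutant late-embryo replicate 2.

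The passengers of the miR-35 family fell in both genotypes, and the term was lower in the mutant for all but miR-37* and miR-38*. Lower terms were not particular to this family: of all passengers, 36 had a lower term and 44 did not pass. miR-39* had 22.8 and 18.2 CPM in late embryos and 815 and 1060 CPM in early embryos of the mutant (log2 fold change -5.85, term -0.92 ± 0.23, adjusted p = 0.013). The guide to passenger ratio of miR-39 changed by 4.78 on the log2 scale in the mutant, and those of all 8 pairs of the family were higher in late embryos there too. In the mutant, 55 of 78 ratios were higher and 3 lower.

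**Figure D5:**
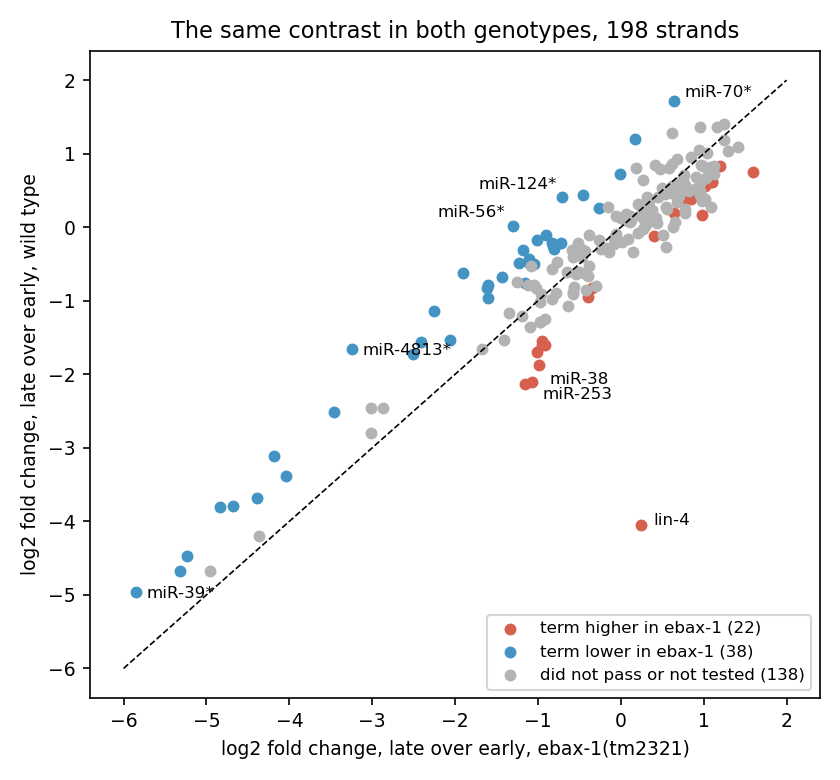
Log2 fold change of late over early embryos in wild type (y axis) against that in ebax-1(tm2321) (x axis) for 198 strands, with the dashed line at equal change and colours for the genotype by stage term. Most strands lie near the line. lin-4, which passed the level filter only through wild-type early embryos, stands apart at 0.24 in the mutant and -4.05 in wild type. Passengers with a lower term lie above the line.

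The strands were last set beside the other wild-type stages, as a description, since the embryo values that gave the calls enter here too. L1 larvae were unfed, later stages were fed, and the adult data came from an earlier study, so these stages differ in more than age. Over the 198 strands, the highest mean CPM of 7 wild-type stages lay in early embryos for 40, in late embryos for 39 and in L1 for 40. The 40 with their peak in early embryos were all among the 73 that fell, and none could be among those that rose. L1 was above late embryos for 40 of the 59 that rose and 24 of the 73 that fell, beside 99 of all 198. miR-1 had 13156 and 12431 CPM in late embryos and 18757 and 13336 CPM in L1, whereas miR-244 had 8552 and 8600 CPM in late embryos and 6851 and 6016 CPM in L1.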

How the data were processed

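Small RNA libraries of 2 late-embryo and 2 early-embryo samples of N2 worms, and as many of ebax-1(tm2321), were analysed from the deposited count table. The deposited values are raw read counts per miRNA strand: the authors trimmed reads with cutadapt and fastx_trimmer, filtered them with fastq_quality_filter, assigned them to curated miRNAs by their leading 19 nt, counted miR-44 and miR-45 in 1 entry, and removed spike-in counts ahead of their own tests. No spike-in scaling was used here. Tool versions are not given in the sources used here. Matching prefixes counts trimmed and tailed forms together, and ligation and PCR biases, not corrected by molecular identifiers, limit comparisons of level between strands. The deposited piRNA counts of adults were not used here.

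CPM were computed over all miRNA counts of a library. Strands with a mean of at least 5 CPM over the 4 wild-type libraries were tested with edgeR 4.0.16 (TMM, glmQLFit, glmQLFTest, two-sided) in R 4.3.3, with stage as the only factor and Benjamini-Hochberg adjustment over the 198 strands, at a threshold of 0.05. Just inside the filter were miR-4809 (5.23 CPM), miR-1821 (5.51) and miR-4810 (5.52), and just outside miR-1020 (4.62), miR-1834 (4.60) and miR-230 (4.51). The same strands were tested in the mutant, and strands of at least 5 CPM over 8 libraries in a fit of genotype, stage and their product. Ratios of guide to passenger were tested with limma 3.58.1 with a pseudocount of 1 CPM. The guide is the strand without a star or the arm with more counts. With 2 libraries a group, which the methods call biological replicates, p-values rest on a spread shared across strands. Counts of replicates differed by more than sampling noise (chi-square per degree of freedom 27.6 in late and 67.6 in early embryos), so none was a copy.

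Named strands were the 12 largest rises and 12 largest falls with CPM that do not overlap, the 10 most abundant strands of either stage, up to 8 members of each list, and up to 6 ratios and 6 genotype by stage terms in each direction. Strands outside this rule that the text names, such as miR-86* and miR-45*, and ratios beyond the 6 largest were chosen after their values were seen. The strands and lists were chosen with earlier results of these data known. Alternatives were DESeq2 1.42.0, library size and RLE scaling, other filters and thresholds, wider fits, a replicate block and leaving out each library. The tests were tried on simulated counts with known changes. Positions are from the RefSeq and Ensembl annotations of WBcel235, in which 108 of 121 hairpins were matched. Tables and plots were made in Python 3.11.15 with pandas 2.3.3, numpy 2.4.6 and matplotlib 3.10.9.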

Additional observations from a re-analysis of the deposited data

Results flagged for a closer look

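The change between the stages differed between genotypes for 34 of the named strands, by the genotype by stage term of the fit over all 8 embryo libraries (log2 change of late over early embryos in ebax-1(tm2321) minus that in the wild type). Of these, 19 were higher in the mutant and 15 lower.

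The largest was lin-4 (4.23), at 0.24 in the mutant and -4.05 in wild type, which rests on 38.5 and 28.9 CPM in wild-type early embryos. In the other embryo libraries lin-4 was at 0.745 to 2.90 CPM. It passed the level filter over the 8 libraries only through wild-type early embryos, so being high there was a condition of its being tested. Among scarce guides, the term was 1.0 for miR-253, 0.93 for miR-78, 0.8 for miR-793 and 0.78 for miR-34. Among the miR-35 family guides it was 0.86 for miR-38, 0.65 for miR-37 and 0.62 for miR-35, and in the gcn-1 cluster 0.66 for miR-65 and 0.57 for miR-64. It was 0.52 for miR-250, 0.49 for miR-238, 0.45 for miR-44, 0.44 for miR-70 and 0.42 for miR-71. The smallest higher terms were 0.38 for miR-63, 0.35 for miR-46, 0.33 for miR-83 and 0.25 for miR-56.

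All named strands with a lower term were passengers. In the miR-35 family the term was -0.67 for miR-41-5p, -0.69 for miR-35*, -0.81 for miR-40*, -0.92 for miR-36*, -0.92 for miR-39* and -1.07 for miR-42*, and beside them -0.73 for miR-44* and -1.1 for miR-43*. It was -1.09 for miR-1822*, -1.11 for miR-70*, -1.15 for miR-81*, -1.15 for miR-124*, -1.33 for miR-1829b*, -1.36 for miR-56* and -1.64 for miR-4813*. In the wild-type contrast, miR-4813* passed the level filter only through early embryos and miR-1822* only through late embryos. The direction of their wild-type change was thus a condition of their being tested there. The cause of the differences between genotypes was not tested.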

How the results depend on the processing

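With 2 libraries a group, counts of calls depended on single libraries and on the scale more than the large changes did. The count of strands higher in late embryos was 97 by library size (lower 56) and 99 without the level filter (lower 67), against 59 and 73; these settings moved the median of all strands by 0.38 and 0.36 on the log2 scale, and a fit of 14 wild-type libraries by 0.25 (80 higher, 54 lower). Other settings gave 50 to 71 higher and 49 to 72 lower, and DESeq2 58 and 66. Leaving out each library gave 38 to 58 higher (38 without late-embryo replicate 2) and 64 to 76 lower in wild type, 61 to 81 and 76 to 89 in the mutant, 7 to 21 higher and 14 to 46 lower genotype by stage terms, and 20 to 39 higher and 2 to 15 lower ratios, with a lone library assumed to vary like the others. A pseudocount of 5 gave 7 lower ratios.

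Of the 97 named strands, 2 that were called turned sign, miR-82 (0.014 by library size and 0.012 without the filter) and miR-797 (0.023 without early-embryo replicate 1, and -0.84 without early-embryo replicate 2), and 11 that did not pass took values on both sides of 0 between settings, among them miR-81 (0.20 by library size), miR-52, miR-72, miR-80 and miR-238. Changes of miR-82, miR-51 and miR-797, whose CPM overlapped, did not pass by library size. The 16 guides and passengers of the miR-35 family kept their direction and call in each setting run.

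Replicate numbers are shared between groups, but the library letters are not shared between the stages: A and B for early embryos, D and E for late embryos. Same-numbered libraries, which the replicate block pairs, thus need not belong together, and they did not deviate together (r = -0.24). With a replicate block, 57 strands were higher and 69 lower in wild type, 73 and 81 in the mutant, 17 and 32 genotype by stage terms passed, and 25 ratios were higher and 2 lower. Crossed numbers, an alternative chosen after seeing the data, gave 60 higher and 72 lower strands. Strands with a mean under 20 CPM had a median standard error of 0.25, against 0.12 above 10000 CPM, so changes of scarce strands were less well measured.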
